A study of Mus musculus with 16 samples.

Results

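The genes described here are the D-type cyclins Ccnd1, Ccnd2 and Ccnd3, cyclin E1 (Ccne1), the kinases Cdk4 and Cdk6, the inhibitors Cdkn1b, Cdkn2c and Cdkn2d, and the retinoblastoma gene Rb1. They were chosen by name as the core of the G1 step of the cell cycle, and all 10 were among the 13652 genes measured. Their transcripts were counted by RNA sequencing in AML246, a line of mouse acute myeloid leukaemia cells kept in IMDM with 10% FCS and IL-3, a growth factor for myeloid progenitors. The cells received doxycycline at 0.1 ug/mL for the first 12 days of a 24-day course, and the title of the series links addition and removal of the drug to restoration and knockdown of PU.1, a myeloid transcription factor encoded by Spi1. Total viable cells were sorted after 4, 8 and 12 days on doxycycline, then 4, 8 and 12 days after its removal (course days 16, 20 and 24), and untreated at day 0. A further group held Cd11b-high cells sorted at day 12. No untreated group was sampled after day 0, so drug history and time in culture cannot be told apart in comparisons with day 0. Each of the 8 groups had 2 libraries, replicates A and B. All groups are AML246, a single line, and the labels do not describe the construct that answers to doxycycline or say whether A and B were separate cultures. The p-values measure the spread between these libraries, which may be technical.

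In G1, D-type cyclins bind Cdk4 or Cdk6, and the active kinases phosphorylate the retinoblastoma protein and its relatives. The retinoblastoma protein holds E2F transcription factors in check, and its phosphorylation lets E2F raise the genes of S phase, cyclin E1 among them, which with Cdk2 carries the phosphorylation further. INK4 inhibitors, here Cdkn2c and Cdkn2d, block Cdk4 and Cdk6 directly, and Cdkn1b of the CIP/KIP family inhibits cyclin E with Cdk2 and can also bind cyclin D complexes. In blood cells the D-type cyclins and both kinases differ between lineages, and this circuit is where many growth signals meet the decision to divide or to leave the cycle. Transcript counts do not measure the activity of these proteins.

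Promoter sequences were read for 3 genes whose transcripts moved together or in opposition along the course, Cdk4, Ccne1 and Cdkn2c. Each is the stretch of 250 bases before an annotated start, written 5′ to 3′ on the strand of the gene, from RefSeq (GRCm38.p6). The windows are chr10:127063285-127063534 on the plus strand for Cdk4, chr7:38107491-38107740 on the minus strand for Ccne1, and chr4:109666757-109667006 on the minus strand for Cdkn2c. Capitals mark CACGTG, the E-box bound by Myc-type factors, in Cdk4, and GGCGGGA, a form of the E2F motif, in Ccne1 and Cdkn2c.
Cdk4: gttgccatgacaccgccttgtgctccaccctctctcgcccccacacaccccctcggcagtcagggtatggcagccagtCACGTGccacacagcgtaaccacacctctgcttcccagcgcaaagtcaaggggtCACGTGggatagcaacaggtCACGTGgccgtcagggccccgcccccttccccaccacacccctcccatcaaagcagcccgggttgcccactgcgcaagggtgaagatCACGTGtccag
Ccne1: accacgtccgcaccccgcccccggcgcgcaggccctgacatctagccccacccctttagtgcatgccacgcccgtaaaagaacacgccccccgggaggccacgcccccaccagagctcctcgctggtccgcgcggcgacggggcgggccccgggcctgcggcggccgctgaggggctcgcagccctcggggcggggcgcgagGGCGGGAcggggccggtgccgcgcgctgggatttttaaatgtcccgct
Cdkn2c: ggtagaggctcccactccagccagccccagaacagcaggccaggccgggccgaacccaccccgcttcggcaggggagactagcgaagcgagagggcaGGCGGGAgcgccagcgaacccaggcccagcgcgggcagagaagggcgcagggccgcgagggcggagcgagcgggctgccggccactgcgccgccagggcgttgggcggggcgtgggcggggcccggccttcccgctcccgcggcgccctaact

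The Cdk4 window held 4 copies of CACGTG, which lie 172, 118, 98 and 11 bases before the start. Among 32841 mouse promoter windows of this length, 6.02% held CACGTG at all and 7 windows (0.0213%) held 4 or more. GGCGGGA, searched on both strands, lay 48 bases before the Ccne1 start and 153 bases before the Cdkn2c start, and 9.75% of all windows held it. GAGGAA, a core of sites bound by PU.1, was searched on both strands and was present in 23.3% of all windows, but in none of the 3 windows shown. The table gave 9 windows for 7 of the 10 genes. Of the 6 not shown, 3 held a match, GGCGGGA in Cdkn2d, CACGTG in Cdk6, and GAGGAA, on the opposite strand, at a second Cdkn2c start. Both Ccnd3 windows and that of Cdkn1b held none of the motifs. No window held more than 1 of these motifs, so no matches overlapped. A match describes the letters of a window, and its absence says only that these letters are not in it. The promoters of Ccnd1, Ccnd2 and Rb1 are not shown.

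The libraries held between 12962801 and 26509803 counted reads. Levels are given as normalised CPM, read counts scaled to library size with TMM factors, and as reads per kilobase of gene length (RPKM) where genes are set against each other. Folds, their standard errors (SE) and Benjamini-Hochberg adjusted p-values over all 13652 genes come from a fit of all 16 libraries with edgeR's quasi-likelihood test, and a gene was called at an adjusted p under 0.05. Spi1 averaged 222 CPM at day 12 and 61.5 CPM at day 0, a log2 fold of 1.85, and stood at 60.8 CPM 4 days after removal. Itgam, which encodes Cd11b, averaged 694 CPM at day 12 and 1.59 CPM at day 0, and stood at 69.7 CPM 4 days after removal. All 8 myeloid markers were measured. The 2 libraries at 12 days off stood apart from each other, with a chi-square per degree of freedom of 73.5 across genes, against 2.97 to 18.9 between the libraries of the other groups.

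After 12 days of doxycycline, transcripts of all D-type cyclins, cyclin E1, Cdkn2c and Rb1 were higher than at day 0 and those of Cdk4 were lower. Of the 10 genes, 6 rose and 1 fell, and 3 were not called (Cdk6, Cdkn1b and Cdkn2d). Across all genes in this comparison 63.4% were called, 30.0% higher and 33.4% lower, and the median size of the log2 fold was 0.82 for the 10 genes and 0.62 for all genes. Between 12 days off and day 12, 4 were higher at 12 days off (Ccnd2, Cdk4, Cdk6 and Cdkn1b) and 4 were lower (Ccnd3, Ccne1, Cdkn2c and Rb1), where 65.3% of all genes were called, 32.9% higher and 32.4% lower. Against day 0, the cells of 12 days off had higher Ccnd2, Ccnd3, Cdkn1b and Rb1 and lower Ccne1, where 43.6% of all genes were called, 21.6% higher and 22.0% lower. These comparisons share libraries. Any difference among the 7 groups of total cells was called for 9 of the 10, all but Ccnd1, against 83.4% of all genes.

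**Figure D1:**
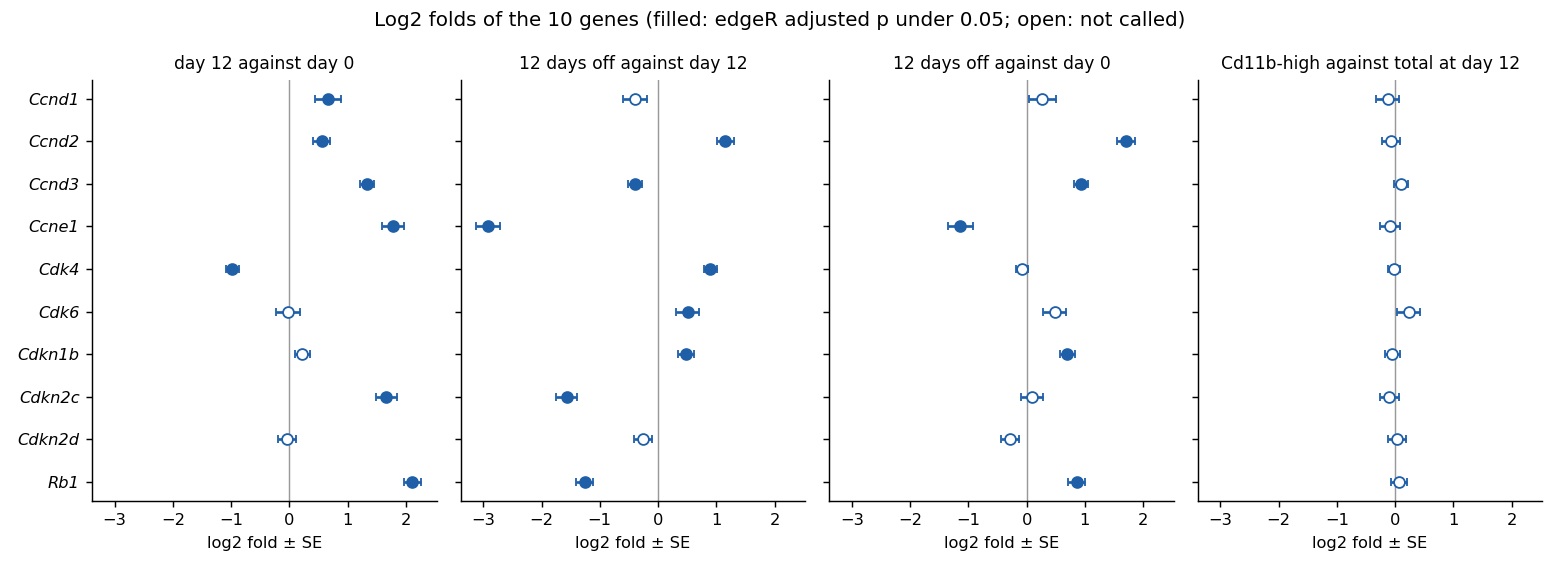
Log2 folds with standard errors (horizontal axis) of the 10 genes (vertical axis) from edgeR in the 4 main comparisons; filled points had an adjusted p under 0.05 and open points did not. Rb1 has the highest fold at day 12 against day 0 (2.11) and Ccne1 the lowest at 12 days off against day 12 (-2.92), and no point is filled for Cd11b-high against total cells.

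Cell markers and measures of the libraries also differed along the course. The summed level of 6 markers of cycling cells was 1890 to 1940 CPM at day 0, 2040 to 2350 CPM at day 4, 3010 to 3020 CPM at day 12 and 1750 to 1790 CPM at 12 days off. That of the 8 myeloid markers was 1850 to 1970 CPM at day 0, 2450 to 2680 CPM at day 4, 2770 to 2880 CPM at day 12 and 1510 to 1660 CPM at 12 days off. For megakaryocytes, 4 of 5 markers were measured, and their sum was 166 to 266 CPM at day 0, 140 to 144 CPM at day 4, 631 to 658 CPM at day 12 and 111 to 113 CPM at 12 days off. All 3 sums were thus highest at day 12 among these days. The myeloid markers did not all rise, as 4 were called higher at day 12 than at day 0, 1 lower and 3 not called. Mpo was the lower one (30.3 CPM at day 12, 601 CPM at day 0), while Itgam (694 CPM at day 12, 1.59 CPM at day 0) and Csf2rb (1280 CPM at day 12, 466 CPM at day 0) were among the higher. Eosinophil markers (5 of 5) summed to 2060 to 5150 CPM at day 0, 200 to 239 CPM at day 4, 7870 to 8800 CPM at day 12 and 4200 to 4280 CPM at 12 days off. Those of basophils and mast cells (4 of 6) summed to 1700 to 2000 CPM at day 0, 260 to 303 CPM at day 4, 1220 CPM at day 12 and 1410 to 1810 CPM at 12 days off. Both sums were lowest at day 4, but the eosinophil markers did not move as one. Epx (141 CPM at day 4, 3430 CPM at day 0) and Prg2 (29.4 CPM at day 4, 151 CPM at day 0) were lower at day 4. Siglecf was higher (34.4 CPM at day 4, 4.06 CPM at day 0), and Ccr3 and Il5ra were not called. The share of reads in mitochondrial genes was 7.36% and 6.35% at day 0, 2.66% and 2.63% at day 4, 2.01% and 2.12% at day 12 and 2.14% and 2.55% at 12 days off. It did not return to its day 0 level. The part of these in the results below was not tested. In bulk samples, fewer cells that express a gene and less of its RNA per cell cannot be told apart.

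Cyclin D3 (Ccnd3) was the most abundant D-type cyclin and rose early. Ccnd3 (Entrez 12445, chromosome 17, 47505051 to 47599689, GRCm38) read 174 and 147 CPM at day 0, 311 and 372 CPM at day 4, 365 and 410 CPM at day 8, and 405 and 406 CPM at day 12, in replicates A and B. After removal it read 348 and 370 CPM at 4 days, 280 and 312 CPM at 8 days, and 322 and 292 CPM at 12 days. Every library on or after doxycycline lay above both day 0 libraries. Ccnd3 was 2.12-fold higher at day 4 than at day 0 (log2 fold 1.09, SE 0.121, edgeR adjusted p = 2.24e-06), and 2.52-fold higher at day 12 (edgeR adjusted p = 2.84e-07). It was lower at 12 days off than at day 12 (log2 fold -0.40, SE 0.119, edgeR adjusted p = 0.00807), but not in a fit of the 4 libraries compared (0.0573, where the alternatives ran from 0.00288 to 0.0573). The level at 12 days off was 1.91 times that of day 0 (log2 fold 0.93, SE 0.121, edgeR adjusted p = 2.71e-05). Ccnd3 shares 353 bases of transcript with Bysl on the opposite strand, and a processed pseudogene matches it at 96.3% over 881 bases. The use of strand in counting is not stated in the sources used here, and Bysl averaged 45.4 CPM at day 12 and 29.9 CPM at day 0 (log2 fold 0.60, edgeR adjusted p = 0.00492), in the direction of Ccnd3. It was higher at 12 days off than at day 12 (63 CPM at 12 days off, log2 fold 0.47, edgeR adjusted p = 0.0171), where Ccnd3 was lower. At 12 days off against day 0, Bysl was higher (log2 fold 1.07, edgeR adjusted p = 0.000118), in the direction of Ccnd3.

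Cyclin D2 (Ccnd2), the D-type cyclin that answers to growth factor signals in many blood cells, followed another course and reached its highest level only after removal. Ccnd2 (Entrez 12444, chromosome 6, 127125162 to 127152188) read 14.4 and 18.1 CPM at day 0, 11.6 and 14.2 CPM at day 4, 15.3 and 17.5 CPM at day 8, and 23.7 and 23.8 CPM at day 12. It read 14.8 and 16.7 CPM at 4 days off, 51.9 and 49.7 CPM at 8 days off, and 46.1 and 59.6 CPM at 12 days off. An antisense gene, 9330179D12Rik, overlaps Ccnd2 on the opposite strand. It averaged 0.88 CPM at 12 days off and 0.331 CPM at day 12 (log2 fold 1.36, edgeR adjusted p = 0.0125), in the direction of Ccnd2. For Ccnd2, the 4 libraries from 8 and 12 days off lay above all other libraries. The step between 4 and 8 days off was 3.23-fold (log2 fold 1.69, SE 0.152, edgeR adjusted p = 3.2e-06), and at 12 days off Ccnd2 stood at 3.26 times its day 0 level (log2 fold 1.71, SE 0.153, edgeR adjusted p = 1.05e-06) and at 2.22 times its day 12 level (edgeR adjusted p = 7.18e-06). On doxycycline the change was smaller, with a log2 fold of 0.55 at day 12 against day 0 (SE 0.153, edgeR adjusted p = 0.00546; 0.39 and 0.0853 without replicate A of day 0, alternatives 0.000906 to 0.0853). Ccnd2 was lower at 4 days off than at day 12 (log2 fold -0.59, edgeR adjusted p = 0.0071; -0.51 and 0.0846 without replicate A of 4 days off, alternatives 0.00142 to 0.0846).

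Cyclin D1 (Ccnd1), which carries growth signals in many solid tissues, stayed low. Ccnd1 (Entrez 12443, chromosome 7, 144929931 to 144939831) read 2.07 to 3.88 CPM over all 16 libraries, from 72 to 168 reads per group. It averaged 3.60 ± 0.395 CPM at day 12 and 2.29 ± 0.313 CPM at day 0 (SD, n = 2 each). The log2 fold of 0.66 (SE 0.223) had an edgeR adjusted p of 0.0172, and the call was lost without replicate A of day 0 (0.52, edgeR adjusted p = 0.129) or replicate A of day 12 (0.55, edgeR adjusted p = 0.108), with alternatives from 0.0117 to 0.129. At 4 days off against day 0 the log2 fold was 0.61 (edgeR adjusted p = 0.0491), a call lost with library size alone (0.0544), a replicate block (0.0514), DESeq2 (0.102) and limma-voom (0.0664), and without either library of either group (0.052 to 0.273), where the lowest alternative was 0.0427. No call was made at 12 days off against day 12 (log2 fold -0.39, edgeR adjusted p = 0.116) or against day 0 (0.27, edgeR adjusted p = 0.358). Ccnd1 shares 818 bases of transcript with LTO1 on the opposite strand, a gene with higher counts. LTO1 averaged 19.5 CPM at day 12 and 19.6 CPM at day 0 (log2 fold -0.01, edgeR adjusted p = 0.947), and 20.9 CPM at 12 days off.

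**Figure D2:**
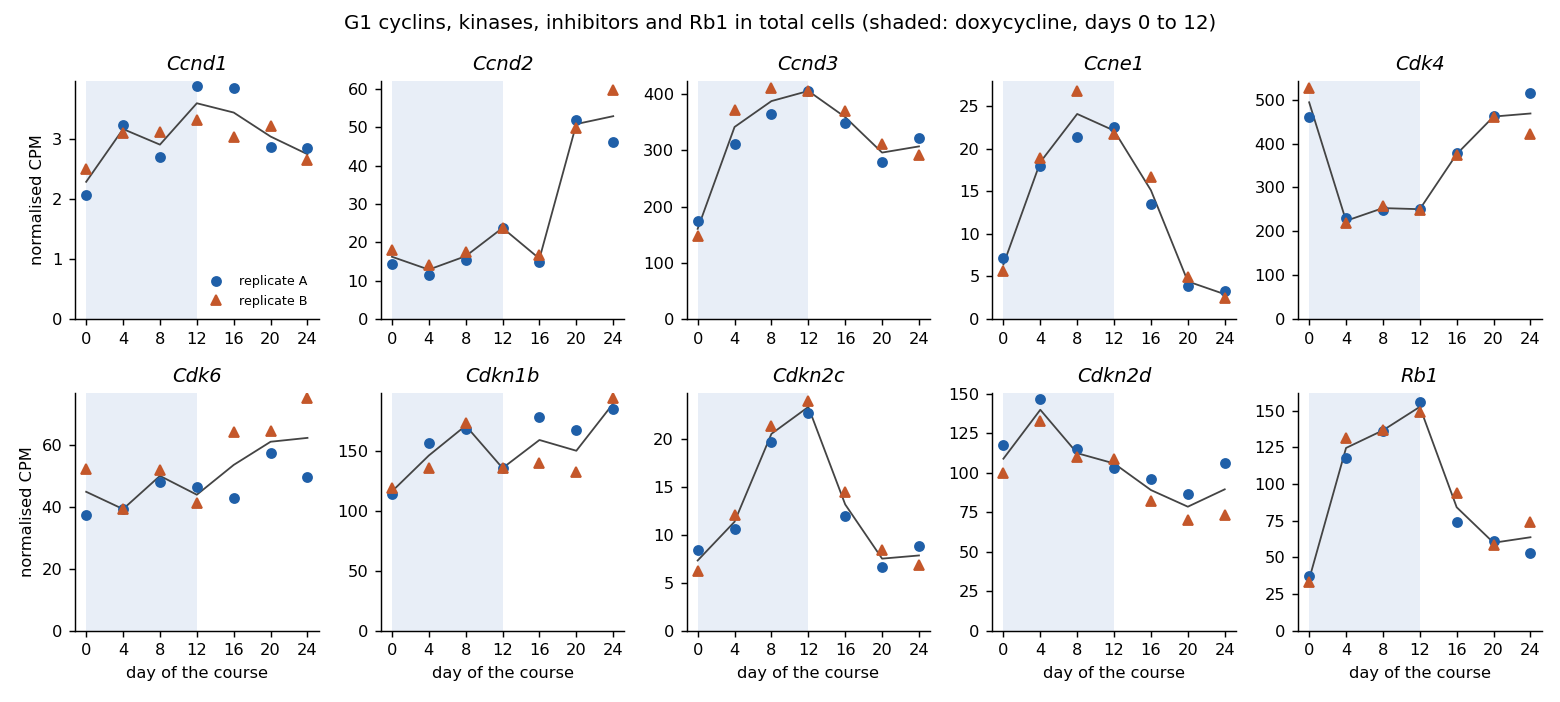
Normalised CPM (vertical axes, each starting at 0) of the 10 genes against the day of the course (horizontal axes) in total cells, with points for replicates A and B, a line through the group means and shading for the days on doxycycline. Ccnd3, Ccne1, Cdkn2c and Rb1 are high under the shading, Cdk4 is low there (218 to 258 CPM), and Ccnd2 is highest at days 20 and 24 (46.1 to 59.6 CPM).

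Per gene length, Ccnd3 made up 92.1% to 98.1% of D-type cyclin transcripts in all 16 libraries. The summed D-type cyclin level was 184 and 185 RPKM at day 12 and 80.2 and 68.9 RPKM at day 0, and it was 151 and 140 RPKM at 12 days off. The part of Ccnd2 in that sum was 2.23% and 2.24% at day 12 and 3.11% and 4.56% at day 0. It was 1.63% and 1.72% at 4 days off, 6.74% and 5.83% at 8 days off, and 5.28% and 7.36% at 12 days off. The share of Ccnd2 lay below both day 0 libraries on doxycycline and at 4 days off, and above both at 8 and 12 days off. Ccnd1 never passed 0.959% of the sum.

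**Figure D3:**
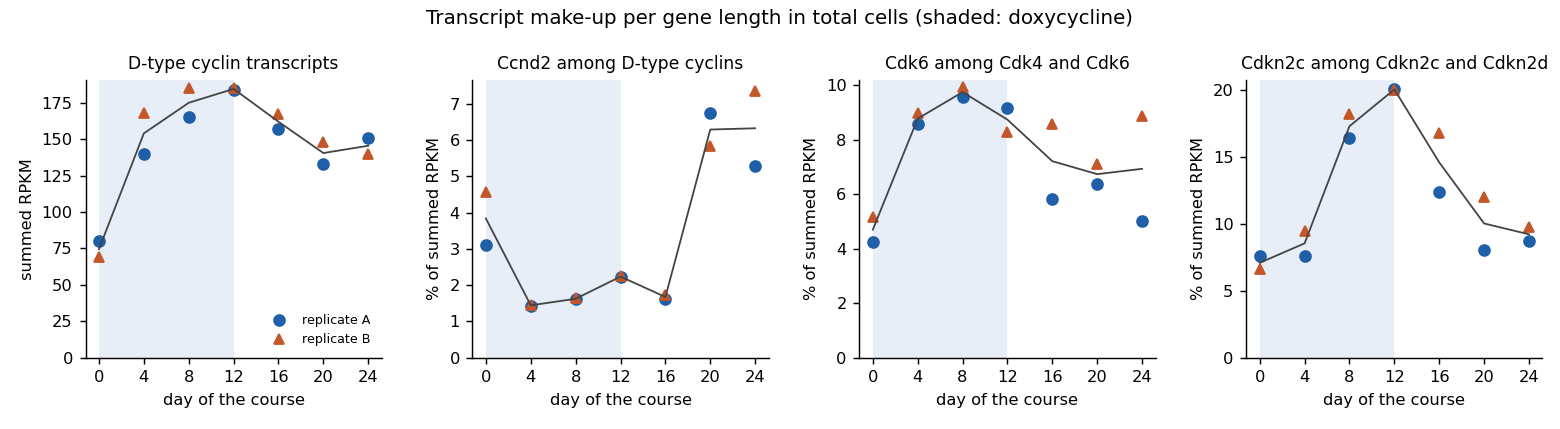
Make-up of transcripts per gene length in total cells against the day of the course (horizontal axes), as the summed RPKM of the D-type cyclins and as percentages of summed RPKM (vertical axes), with points for replicates A and B, a line through group means and shading for doxycycline. Ccnd2 lies at 5.28% to 7.36% of D-type cyclins at days 20 and 24, and Cdkn2c reaches 20.1% and 20% of the INK4 pair at day 12.

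Cyclin E1 (Ccne1), which drives Cdk2 at the entry to S phase, had the widest range of the 10 genes. Ccne1 (Entrez 12447, chromosome 7, 38097984 to 38107490) read 7.12 and 5.68 CPM at day 0, 17.9 and 18.9 CPM at day 4, 21.4 and 26.7 CPM at day 8, and 22.5 and 21.7 CPM at day 12. It read 13.5 and 16.7 CPM at 4 days off, 3.90 and 4.94 CPM at 8 days off, and 3.34 and 2.51 CPM at 12 days off. All libraries on doxycycline lay above all day 0 libraries, and all libraries at 8 and 12 days off lay below them. Ccne1 was 2.86-fold higher at day 4 than at day 0 (log2 fold 1.51, SE 0.186, edgeR adjusted p = 6.12e-06) and 3.43-fold higher at day 12 (log2 fold 1.78, SE 0.186, edgeR adjusted p = 1.19e-06). It was lower at 12 days off than at day 12 (log2 fold -2.92, SE 0.199, edgeR adjusted p = 1.29e-08) and lower than at day 0 (log2 fold -1.14, SE 0.215, edgeR adjusted p = 0.000632). Between 4 and 8 days off lay the largest of the steps after removal (log2 fold -1.76, SE 0.192, edgeR adjusted p = 1.75e-05). The earlier step, 4 days off against day 12, had a log2 fold of -0.55 (edgeR adjusted p = 0.0207), and its call was lost with library size alone (0.0504) and without replicate A (0.104) or B (0.071) of day 12 or replicate A of 4 days off (0.208), with 0.0102 as its lowest alternative. At 8 days off against day 0 the log2 fold was -0.54 (edgeR adjusted p = 0.0537; 0.0438 with a replicate block, alternatives 0.0438 to 0.347).

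Cdk4, the more abundant kinase partner of D-type cyclins here by RPKM, fell on doxycycline and returned after removal. Cdk4 (Entrez 12567, chromosome 10, 127063535 to 127067288) read 461 and 527 CPM at day 0, 230 and 218 CPM at day 4, 248 and 258 CPM at day 8, and 252 and 249 CPM at day 12. It read 379 and 373 CPM at 4 days off, 462 and 461 CPM at 8 days off, and 515 and 422 CPM at 12 days off. The 6 libraries of total cells on doxycycline lay below all libraries without the drug. Cdk4 was 0.453 times its day 0 level at day 4 (log2 fold -1.14, SE 0.11, edgeR adjusted p = 5.29e-07) and 0.507 times at day 12 (log2 fold -0.98, SE 0.11, edgeR adjusted p = 2.32e-06). Its level was higher at 4 days off than at day 12 (log2 fold 0.59, SE 0.109, edgeR adjusted p = 0.000823) and 1.87-fold higher at 12 days off (log2 fold 0.90, SE 0.11, edgeR adjusted p = 4.71e-06). The log2 fold of 12 days off against day 0 was -0.08 (SE 0.109, edgeR adjusted p = 0.595). That of 4 days off against day 0 was -0.39 (edgeR adjusted p = 0.0108), a call lost without replicate B of day 0 (0.0989) or of 4 days off (0.0655), with 0.00678 as its lowest alternative. The gene shares 641 bases of transcript with Tspan31 on the opposite strand, and Tspan31 was called in the direction of Cdk4 in both comparisons. Tspan31 averaged 81.5 CPM at day 12 and 101 CPM at day 0 (log2 fold -0.31, edgeR adjusted p = 0.021). It averaged 119 CPM at 12 days off (log2 fold 0.55 against day 12, edgeR adjusted p = 0.000388).

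Cdk6, the other kinase of D-type cyclins and the one tied to stem and progenitor cells of the blood, varied widely between replicates. Cdk6 (Entrez 12571, chromosome 5, 3341004 to 3531008) read 37.5 and 52.5 CPM at day 0, 39.4 and 39.4 CPM at day 4, 48.1 and 52.2 CPM at day 8, and 46.7 and 41.4 CPM at day 12. It read 43.1 and 64.3 CPM at 4 days off, 57.6 and 64.8 CPM at 8 days off, and 49.7 and 75.2 CPM at 12 days off. The libraries at 12 days off lay above those of day 12, but overlapped those of day 0. The log2 fold of 12 days off against day 12 was 0.51 (SE 0.202, edgeR adjusted p = 0.0389), and the call was lost with the 4 libraries alone (0.12), without replicate A (0.0673) or B (0.183) of day 12, and without replicate B of 12 days off (log2 fold 0.21, edgeR adjusted p = 0.346), with alternatives from 0.00209. Against day 0 the log2 fold at 12 days off was 0.48 (edgeR adjusted p = 0.0708), which passed with RLE factors (0.0462), a replicate block (0.0301) and DESeq2 (0.0328), and without replicate B of day 0 (0.74, edgeR adjusted p = 0.0324) or replicate A of 12 days off (0.75, edgeR adjusted p = 0.00475), with alternatives up to 0.455. Per gene length, Cdk6 was 9.18% and 8.30% of the summed Cdk4 and Cdk6 level at day 12 and 4.24% and 5.16% at day 0, as the summed level was 206 and 202 RPKM at day 12 and 357 and 412 RPKM at day 0.

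Cdkn2c, an INK4 inhibitor of Cdk4 and Cdk6 that rises in many cells as they mature, was higher on doxycycline than at day 0. Cdkn2c (Entrez 12580, chromosome 4, 109660876 to 109666756) read 8.43 and 6.20 CPM at day 0, 10.6 and 12.1 CPM at day 4, 19.7 and 21.3 CPM at day 8, and 22.7 and 23.9 CPM at day 12. It read 11.9 and 14.4 CPM at 4 days off, 6.63 and 8.39 CPM at 8 days off, and 8.79 and 6.89 CPM at 12 days off. Both day 8 libraries lay above both day 4 libraries, and Cdkn2c rose in that step (log2 fold 0.85, SE 0.172, edgeR adjusted p = 0.00428). That call was lost without replicate A of day 4 (0.0626) or replicate B of day 8 (0.0551), and the call of day 4 against day 0 (log2 fold 0.62, edgeR adjusted p = 0.00868) without replicate B of day 0 (0.101) or of day 4 (0.0503), with 0.000202 and 0.00287 as the lowest alternatives of these steps. Cdkn2c was 3.15-fold higher at day 12 than at day 0 (log2 fold 1.66, SE 0.18, edgeR adjusted p = 1.72e-06). It was lower at 12 days off than at day 12 (log2 fold -1.57, SE 0.175, edgeR adjusted p = 2.04e-06), and 12 days off against day 0 gave a log2 fold of 0.09 (SE 0.189, edgeR adjusted p = 0.743). The step between 4 and 8 days off (log2 fold -0.80, edgeR adjusted p = 0.00491) lost its call without replicate B of 4 days off (0.0553) or replicate A of 8 days off (0.0749).

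Cdkn2d, the other INK4 inhibitor among the 10 genes, kept to a narrower range. Cdkn2d (Entrez 12581, chromosome 9, 21288459 to 21291421) read 118 and 100 CPM at day 0, 147 and 133 CPM at day 4, 115 and 110 CPM at day 8, and 103 and 109 CPM at day 12. It read 96.3 and 82 CPM at 4 days off, 86.8 and 70.4 CPM at 8 days off, and 106 and 73.2 CPM at 12 days off. The highest libraries were those of day 4, and the 5 lowest came from the days off. The log2 fold was -0.04 at day 12 against day 0 (SE 0.155, edgeR adjusted p = 0.835), -0.25 at 12 days off against day 12 (edgeR adjusted p = 0.172) and -0.29 at 12 days off against day 0 (edgeR adjusted p = 0.149). The comparisons at 12 days off turned on which library was kept. Without replicate A of 12 days off both were called lower (-0.54 with edgeR adjusted p = 0.00211 against day 12, -0.58 with 0.0022 against day 0), while other alternatives reached 0.03 and an edgeR adjusted p of 0.854 against day 12 and 0.837 against day 0. At 8 days off Cdkn2d was lower than at day 0 (log2 fold -0.48, edgeR adjusted p = 0.0291), a call lost without replicate A of day 0 (0.214) or replicate B of 8 days off (0.248), with 0.00887 as its lowest alternative. At day 4 against day 0 the log2 fold was 0.36 (edgeR adjusted p = 0.0585), which passed with RLE factors (0.0379), a replicate block (0.0213) and DESeq2 (0.0315), with alternatives up to 0.308. Per gene length, Cdkn2c was 20.1% and 20% of the INK4 pair at day 12 and 7.57% and 6.62% at day 0, so Cdkn2d stayed the more abundant of the pair in every library.

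Cdkn1b, the CIP/KIP inhibitor that restrains Cdk2 in resting cells, was highest at the end of the course. Cdkn1b (Entrez 12576, chromosome 6, 134920401 to 134925525) read 114 and 119 CPM at day 0, 157 and 136 CPM at day 4, 169 and 174 CPM at day 8, and 136 and 136 CPM at day 12. It read 179 and 140 CPM at 4 days off, 168 and 133 CPM at 8 days off, and 185 and 195 CPM at 12 days off. Both libraries at 12 days off lay above all others, and both day 0 libraries lay below all others. Cdkn1b at 12 days off was 1.63 times its day 0 level (log2 fold 0.70, SE 0.131, edgeR adjusted p = 0.000606) and 1.39 times its day 12 level (log2 fold 0.48, SE 0.13, edgeR adjusted p = 0.00471). At day 12 against day 0 the log2 fold was 0.22 (SE 0.131, edgeR adjusted p = 0.148; 0.27 and 0.00535 with the 4 libraries alone, alternatives 0.00535 to 0.588). The smaller rises against day 0 at day 4 (log2 fold 0.33, edgeR adjusted p = 0.0411), 4 days off (0.45, edgeR adjusted p = 0.014) and 8 days off (0.37, edgeR adjusted p = 0.0423) were each lost without either library of day 0 (0.0511 to 0.176) or without replicate A of the other group (0.14 at day 4, 0.172 at 4 days off and 0.386 at 8 days off), with lowest alternatives of 0.0146 at day 4, 0.00264 at 4 days off and 0.0164 at 8 days off.

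Rb1, which encodes the retinoblastoma protein, the substrate of these kinases, had the largest rise of the 10 genes at day 12. Rb1 (Entrez 19645, chromosome 14, 73192858 to 73325951) read 37.2 and 33 CPM at day 0, 118 and 131 CPM at day 4, 136 and 137 CPM at day 8, and 156 and 149 CPM at day 12. It read 74.4 and 93.8 CPM at 4 days off, 61.2 and 58.7 CPM at 8 days off, and 53 and 74.4 CPM at 12 days off. No library on or after doxycycline came down to the day 0 libraries. Rb1 was 3.55-fold higher at day 4 than at day 0 (log2 fold 1.83, SE 0.149, edgeR adjusted p = 1.04e-07) and 4.33-fold higher at day 12 (log2 fold 2.11, SE 0.15, edgeR adjusted p = 2.47e-08). It was lower at 4 days off than at day 12 (log2 fold -0.86, SE 0.143, edgeR adjusted p = 0.000348) and at 12 days off than at day 12 (log2 fold -1.26, SE 0.144, edgeR adjusted p = 2.71e-06). Its level at 12 days off was 1.81 times that of day 0 (log2 fold 0.86, SE 0.148, edgeR adjusted p = 0.000316). Between 4 and 8 days off, the step (log2 fold -0.49, edgeR adjusted p = 0.0236) lost its call without replicate B of 4 days off (0.232) or replicate A (0.0953) or B (0.125) of 8 days off, with 0.00954 as its lowest alternative. Lpar6 and Rcbtb2 overlap Rb1 on the opposite strand and were not called higher at day 12 against day 0, with 62 CPM at day 12 and 81 CPM at day 0 for Lpar6 (log2 fold -0.39, edgeR adjusted p = 0.0214). Rcbtb2 averaged 59.1 CPM at day 12 and 65.3 CPM at day 0 (log2 fold -0.14, edgeR adjusted p = 0.247). At 12 days off against day 12, where Rb1 fell, Rcbtb2 fell too (42.4 CPM at 12 days off and 59.1 CPM at day 12, log2 fold -0.48, edgeR adjusted p = 0.000981). Lpar6 had a log2 fold of -0.27 (edgeR adjusted p = 0.0934).

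Levels between genes can be set side by side only per length. At day 12 the order of mean RPKM was Cdk4 (186), Ccnd3 (179), Cdkn2d (83.7), Cdkn1b (56.6), Rb1 (32.9), Cdkn2c (21), Cdk6 (17.8), Ccne1 (11.3), Ccnd2 (4.12) and Ccnd1 (0.947). At day 0 it was Cdk4 (367), Cdkn2d (86), Ccnd3 (71.1), Cdkn1b (48.5), Cdk6 (18.2), Rb1 (7.59), Cdkn2c (6.61), Ccne1 (3.27), Ccnd2 (2.82) and Ccnd1 (0.602). Cdk4 was thus far above Ccnd3 at day 0 and near it at day 12, where the RPKM of Cdk4 was 186 and that of Ccnd3 179. These orders are a description of transcript levels, with no test between genes.

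Along the course, calls among the 10 genes came at day 4, at 4 days off and at 8 days off, and with 1 exception not between day 4 and day 12. At day 4 against day 0, 5 of the 10 rose and 1 fell, where 59.2% of all genes were called, 28.2% higher and 31.0% lower. At day 8 against day 4 Cdkn2c alone was called, where 13.9% of all genes were and 6.78% were higher, and it was not called without replicate A of day 4 or replicate B of day 8. None of the 10 was called at day 12 against day 8 (2 with an unadjusted edgeR p under 0.05), where 2.24% of all genes were. Ccnd2 had the lowest p there (log2 fold 0.53, edgeR adjusted p = 0.101) and passed with a replicate block (0.0396) and with DESeq2 (0.0456). At 4 days off against day 12, Cdk4 rose and Ccnd2, Ccne1, Cdkn2c and Rb1 fell, where 36.8% of all genes were called, 18.0% higher and 18.8% lower, and 3 of these 5 calls were left without replicate A of 4 days off. At 8 days off against 4 days off, Ccnd2 rose and Ccne1, Cdkn2c and Rb1 fell, where 24.0% of all genes were called, 11.6% higher and 12.4% lower, and 2 calls were left without replicate B of 4 days off or replicate A of 8 days off.

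The last step, 12 days off against 8 days off, had no call among the 10 genes (2 with an unadjusted edgeR p under 0.05, and 0 calls by DESeq2), where 3.71% of all genes were called. The number of calls turned on single libraries, and 507 genes were called with all of them. The number was 6159 without replicate B and 146 without replicate A of 12 days off, and 125 without replicate A and 29 without replicate B of 8 days off. The fit without replicate B of 12 days off also gave 1 call among the 10 (Cdkn2d, log2 fold 0.47, edgeR adjusted p = 0.00609), and the others gave 0. Against day 0, 6 genes were higher and 1 was lower at 4 days off, where 37.9% of all genes were called, 18.8% higher and 19.1% lower, with 4 calls without replicate B of day 0. Of the 10, at 8 days off, 4 were higher and 1 was lower, where 33.1% of all genes were called, 16.2% higher and 16.9% lower, with 3 calls without replicate A of day 0.

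None of the 10 genes was called between Cd11b-high cells and the total cells of day 12. Ccnd3 averaged 435 ± 12.5 CPM in Cd11b-high cells and 406 ± 0.433 CPM in total cells, Cdk4 246 ± 13.4 CPM in Cd11b-high cells and 251 ± 1.72 CPM in total cells, and Rb1 159 ± 1.52 CPM in Cd11b-high cells and 152 ± 4.71 CPM in total cells (SD, n = 2 each). The largest log2 fold was that of Cdk6, at 0.23 (SE 0.202). Every edgeR adjusted p was 1, with 0 of the 10 under an unadjusted p of 0.05 and 0 calls by DESeq2, and 0.0146% of all genes were called. Itgam itself, the gene of the sort marker, averaged 912 CPM in Cd11b-high cells and 694 CPM in total cells (log2 fold 0.39, edgeR adjusted p = 1). These SEs of 0.109 to 0.205 on the log2 scale set how small a difference could have been seen.

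Both other pocket proteins rose at day 12 against day 0, where 30.0% of all genes rose. In turn, 4 inhibitors outside the 10 were higher at 12 days off than at day 0, where 21.6% of all genes were. Rbl1 averaged 128 CPM at day 12 and 69.9 CPM at day 0, and Rbl2 162 CPM at day 12 and 71.8 CPM at day 0 (edgeR adjusted p = 0.000245 for Rbl1 and 2.86e-06 for Rbl2). They stood at 45.1 CPM (Rbl1) and 55.7 CPM (Rbl2) at 12 days off, below day 12 (log2 folds -1.51 and -1.54) and below day 0 (log2 folds -0.63 and -0.37, edgeR adjusted p = 0.00599 and 0.0385), where Rb1 was above day 0. The 2 libraries at 12 days off lay apart, with 34.6 and 55.6 CPM for Rbl1 and 45.8 and 65.5 CPM for Rbl2. Cdkn1a, a p53-responsive CIP/KIP inhibitor, read 99 and 75.5 CPM at 12 days off, 57.8 and 59.3 CPM at day 12, and 30.2 and 24.1 CPM at day 0. It was 3.20-fold higher at 12 days off than at day 0 (log2 fold 1.68, SE 0.22, edgeR adjusted p = 3.6e-05). Cdkn1c, the other CIP/KIP inhibitor, read 8.64 and 5.93 CPM at 12 days off, 0.912 and 1.12 CPM at day 12, and 1.52 and 2.66 CPM at day 0, and it was higher at 12 days off than at day 12 (log2 fold 2.83, edgeR adjusted p = 1.45e-06) and than at day 0 (log2 fold 1.83, edgeR adjusted p = 0.000171). Cdkn2a, whose counts cannot be split between its INK4 and ARF products, averaged 28.8 CPM at 12 days off, 10.5 CPM at day 12 and 11.8 CPM at day 0 (log2 fold 1.27 against day 0, edgeR adjusted p = 0.000744). Cdkn2b, an INK4 inhibitor, averaged 3.87 CPM at 12 days off and 1.83 CPM at day 0 (log2 fold 1.03, edgeR adjusted p = 0.0253). Cdk2, the partner of cyclin E, averaged 185 CPM at 12 days off and 291 CPM at day 0 (log2 fold -0.66, edgeR adjusted p = 7.48e-05). Ccne2, the other E-type cyclin, averaged 15.9 CPM at 12 days off and 30.1 CPM at day 12 (log2 fold -0.92, edgeR adjusted p = 0.000481). Against day 0 (19.7 CPM) Ccne2 was not called at 12 days off (log2 fold -0.31, edgeR adjusted p = 0.204).

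**Figure D4:**
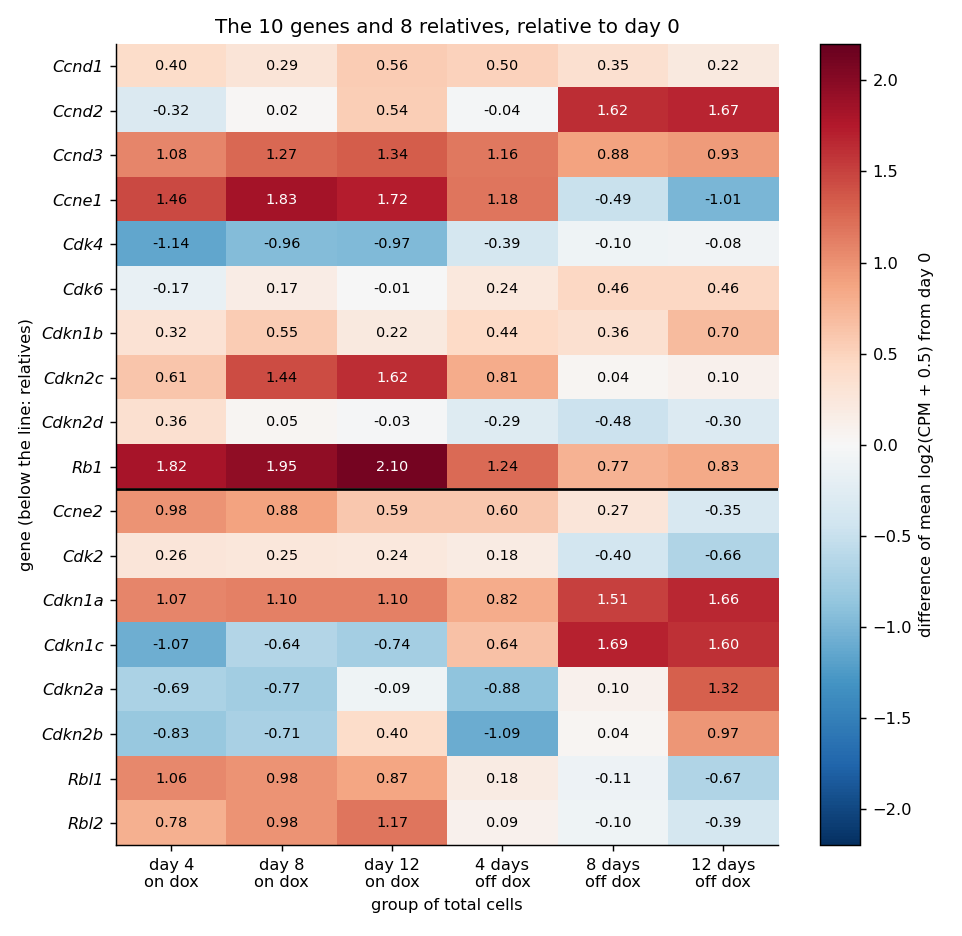
Difference of mean log2(CPM + 0.5) from day 0 (colour and printed value) for the 10 genes above the line and 8 relatives below it (rows), in the groups of total cells along the course (columns). Rb1, Rbl1 and Rbl2 are positive through day 12 and Cdkn1a, Cdkn1c and Ccnd2 lie between 1.51 and 1.69 in both of the last columns.

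In the wider pathway, list members rose and fell at day 12 against day 0, where 30.0% of all genes rose and 33.4% fell. Of 11 other G1 cyclins, kinases and inhibitors, 4 rose and 3 fell in that comparison, near the 63.4% of all genes called (median log2 fold 0.21, against -0.07 for all genes). In cells 12 days off, 6 rose and 3 fell against day 12, where 32.9% of all genes rose and 32.4% fell (median 0.58, against 0 for all genes). Of these 11, 7 rose and 1 fell at 12 days off against day 0, where 21.6% of all genes rose and 22.0% fell (median 0.52, against 0). The members with the lowest p at day 12 were Cdk7, the kinase that activates other CDKs, with 38.4 CPM at day 12 and 61.2 CPM at day 0, the CDK phosphatase Cdc25a, with 116 CPM at day 12 and 67.6 CPM at day 0, and Cdkn1a. With library size alone the split at day 12 was 3 and 4. Of 12 pocket proteins, E2F factors and their partners, 6 rose and 2 fell at day 12 against day 0 (median 0.27), among them the repressive E2F factor E2f8, with 193 CPM at day 12 and 62.1 CPM at day 0, Rbl2, and E2f5, which fell to 3.74 CPM at day 12, against 13.1 CPM at day 0. Of these 12, at 12 days off, 3 rose and 7 fell against day 12 (median -0.58), and 2 rose and 7 fell against day 0 (median -0.41, and 3 and 5 with RLE factors).

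Of 26 E2F targets of S phase entry, 10 rose and 6 fell at day 12 against day 0 (median 0.07), near the share of all genes called (63.4%). The count was 9 and 9 with a median of -0.07 with library size alone, where the median of all genes shifted by -0.13. The helicase subunit Mcm3 averaged 431 CPM at day 12 and 173 CPM at day 0, while Orc1 of the origin recognition complex averaged 13.9 CPM at day 12 and 44.3 CPM at day 0, and the replication factor Gins1 14.8 CPM at day 12 and 36.6 CPM at day 0. Of these 26, at 12 days off, 6 rose and 14 fell against day 12 (median -0.29), where 32.9% of all genes rose and 32.4% fell. Against day 0, 3 rose and 11 fell (median -0.19, and 4 and 6 with RLE factors), where 21.6% of all genes rose and 22.0% fell. Of 16 late cell cycle genes, 7 rose and 0 fell at day 12 against day 0, against 63.4% of all genes called (median 0.17; 7 and 2 with library size alone). Top2a, a topoisomerase of dividing cells, averaged 1400 CPM at day 12 and 663 CPM at day 0, the spindle checkpoint gene Bub1b 119 CPM at day 12 and 62.3 CPM at day 0, and the mitotic kinase Plk1 115 CPM at day 12 and 62.2 CPM at day 0. Of these 16, at 12 days off, 3 rose and 9 fell against day 12 (median -0.35), and 4 rose and 3 fell against day 0 (median 0.14; 7 and 3 with RLE factors). The late list shares Mki67, Top2a, Ccnb1 and Cdk1 with the cycling cell markers above.

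DREAM and MuvB proteins join pocket proteins and E2F to silence the cell cycle in resting cells, and ubiquitin ligases set the lifetime of G1 proteins. In both lists the number called at day 12 against day 0 was near the 63.4% of all genes. Of 8 DREAM and MuvB genes, 4 rose and 1 fell in that comparison (median 0.25), with Lin9 at 56.7 CPM at day 12 and 38.7 CPM at day 0, Lin54 at 89.7 CPM at day 12 and 61.6 CPM at day 0, and Foxm1, an activator of mitotic genes, at 122 CPM at day 12 and 196 CPM at day 0. Of these 8, at 12 days off, 1 rose and 4 fell against day 12 (median -0.32), where 32.9% of all genes rose and 32.4% fell. Against day 0, 1 rose and 3 fell (median -0.02, and 0.03 with RLE factors), where 21.6% of all genes rose and 22.0% fell. Of 14 ligase genes, 4 rose and 5 fell at day 12 against day 0 (median -0.03; 0.02 with RLE factors, and 1 and 7 with library size alone). Skp2, which targets Cdkn1b for degradation, averaged 32.8 CPM at day 12 and 51.7 CPM at day 0, its scaffold Cul1 214 CPM at day 12 and 156 CPM at day 0, and Cul4a 148 CPM at day 12 and 193 CPM at day 0. Of these 14, at 12 days off, 5 rose and 4 fell against day 12 (median -0.03; 0.07 with library size alone), and 2 rose and 3 fell against day 0 (median 0.11).

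Among pairs of the 10 genes, the courses of Rb1 and Ccnd3 were most alike. Over the 8 group means of log2(CPM + 0.5), Pearson's r was 0.912 for Rb1 with Ccnd3, 0.900 for Rb1 with Cdkn2c and 0.883 for Ccne1 with Cdkn2c. It was 0.861 for Ccnd1 with Ccnd3, 0.823 for Ccne1 with Rb1 and 0.813 for Ccnd2 with Cdk6. Ccnd3 was less like Cdkn2c (0.775) and Ccne1 (0.605). Cdk4 ran the opposite way, with r of -0.935 with Rb1 and -0.894 with Ccne1, and Cdk6 ran opposite to Cdkn2d (-0.880). Likeness was also sought among 9069 genes whose mean level reached 10 CPM. Genes without a symbol, or with provisional names such as Gm or Rik, were left out. Those most like Ccne1 were Hcst, a signalling adaptor (0.998), the transporter Abcb9 (0.996) and the formin Fmnl3 (0.996). Those most like Rb1 were Cdc42se1 (0.999), Cmtm6 (0.998) and the glycolipid transfer gene Gltp (0.997). Hcst stood at 20.3 CPM at day 12 and 5.58 CPM at day 0 and at 2.64 CPM at 12 days off, and Cmtm6 at 282 CPM at day 12 and 83.4 CPM at day 0 and at 140 CPM at 12 days off. These values describe 8 points that share libraries and a schedule, with no test.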

How the data were processed

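RNA-seq libraries of sorted AML246 cells were analysed from read counts per Entrez gene, whole numbers that the authors deposited in 1 file per library with gene lengths. Tools named in the submitters' processing notes are featureCounts, edgeR and limma, and the build is mm10. No versions or roles are given, and aligner and strandedness are not given in the sources used here. The deposited files hold only genes over 0.5 CPM in 3 or more libraries. Symbols were matched by Entrez number for 13216 of 13652 genes, and gene coordinates are GRCm38.

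The 16 libraries were grouped by title into 8 groups of 2. Counts were TMM normalised and fitted together, with 1 mean per group, by edgeR 4.0.16 (quasi-likelihood F test, robust, two-sided; limma 3.58.1, R 4.3.3), 8 residual degrees of freedom per gene, common biological variation 10.9%. The low-count filter (filterByExpr) removed 0 genes. There were 12 comparisons, with p-values adjusted within each over 13652 genes. An SE is the log2 fold divided by √F, without sign. RPKM used the deposited gene lengths and TMM-scaled library sizes. The script was tested on simulated data.

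The 10 genes, the lists and the tests were chosen with earlier results of these data known. Named beside the 10 were 8 relatives, from each list the 3 genes of lowest adjusted p at day 12 against day 0, and the 3 genes most like each of the 2 with the widest range. Spi1 and Itgam served as a check, and measured genes that overlap one of the 10 were also named. Alternatives were DESeq2 1.42.0, limma-voom, RLE factors, unscaled library size, omitting the filter, a replicate block, a fit of the 4 libraries compared (main comparisons) and leaving out each library in turn.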

Additional observations from a re-analysis of the deposited data

How the results depend on the processing

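Over 1240 alternative values of the log2 folds of the 10 genes, 1176 kept their side of the threshold, 43 lost a call, 21 gained a call and 0 called folds reversed. The 1176 include folds that were not called and changed sign, such as Cdk6 at day 12 against day 0 (log2 fold -0.25 to 0.23). Counts of called genes moved by over 1.5 times as follows. For Cd11b-high against total cells at day 12 (2 genes), 1 was called with library size alone, 15 with DESeq2, 1 with limma-voom, 313 with the 4 libraries alone and 1 in each fit that left out a library. For 12 days off against 8 days off (507), 987 were called with a replicate block, 1195 with DESeq2 and 29 to 6159 when a library was left out. For 12 days off against day 0 (5950), 2160 were called with the 4 libraries alone. When a library was left out, 590 to 1217 genes were called at day 8 against day 4, 77 to 113 at day 12 against day 8, 2522 to 4470 at 4 days off against day 12, 1532 to 2027 at 8 days off against 4 days off, 3031 to 4238 at 4 days off against day 0 and 2533 to 3385 at 8 days off against day 0. In these fits the lone library of a group is assumed to vary like the others.

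Of the 10 genes, leaving out a library gave 0 to 1 called at day 8 against day 4, 3 to 6 at 4 days off against day 12, 2 to 4 at 8 days off against 4 days off, 0 to 1 at 12 days off against 8 days off, 4 to 5 at 4 days off against day 0 and 3 to 4 at 8 days off against day 0. At day 12 against day 8, 1 was called with a replicate block and 1 with DESeq2. The labels do not say whether the replicate letters pair the libraries, and the main fit did not pair them. The deviations of same-lettered libraries correlated by over 0.1 in 10 of 28 pairs of groups and by under -0.1 in 3, with a range of -0.15 to 0.453. These values do not settle whether the letters mark pairs. With the block the same number was called among the 10 at day 12 against day 0 (7) and at 12 days off against day 12 (8), and 6 against 5 at 12 days off against day 0. The causes were not tested. Library size alone moved the higher share of called genes by over 10 points at day 8 against day 4 (38.4% against 48.7%), day 12 against day 8 (66.1% against 81%), 4 days off against day 12 (64.6% against 48.9%) and 12 days off against 8 days off (31.1% against 41.4%), and shifted the median of all genes by -0.13 at day 12 against day 0, 0.12 at 4 days off against day 12 and 0.1 at 12 days off against day 12. Depth limits Ccnd1 most, with 72 reads in all at day 0.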
